A study of Homo sapiens with 10 samples.

Results

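The response of WT PR-A cells to the progestin R5020 was taken from 4 of the 10 arrays of the series: 2 of vehicle-treated and 2 of R5020-treated cells, compared as R5020 minus vehicle over every probe set with 1 gene symbol. T47D is an estrogen receptor-positive human breast cancer line. The cells descend from T47D-Y, a T47D subline that has lost the progesterone receptor (PR), and stably express wild-type PR-A from a transfected vector, so the receptor is not under its own promoter and PR-B is lacking. R5020 (promegestone) was given at 10 nM for 24 h and vehicle was ethanol; the other arrays were 2 of PR-A K388R cells with vehicle, 2 of PR-A K388R cells with R5020 and 2 of vehicle-treated T47D-Y cells. K388R is a receptor whose SUMO acceptor lysine was replaced. T47D-Y cells given R5020 are not analysed here. Since no label says that replicates 1 and 2 were separate cultures, the p-values cover no more than the spread between these arrays, which may be technical.

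PR-A is the shorter form of the progesterone receptor. When hormone binds, the receptor leaves its chaperones and attaches to DNA, as a dimer at palindromic progesterone response elements or through other factors, and recruits coactivators or corepressors. In breast cells progestins are known to change cell shape and adhesion, glucose and lipid use, cytokine and growth factor signalling, and steroid metabolism. The genes are described below by role. Known direct progestin targets were left out of the ranked changes and read as a check, but some also count in other lists.

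Values are log2 levels, so a difference of 1 is a doubling. The table used here held only part of the probe sets of the U133 Plus 2 array. Those with 1 symbol numbered 12547, for 8904 genes. Counts of genes and of a gene's probe sets below cover these alone. The receptor gene itself is not among them, so the labels were checked on targets alone. Medians of the 10 arrays lay between 4.586 and 4.690, and arrays of a group correlated at 0.9961 to 0.997 across probe sets. RNA quality was not tested. Markers of luminal epithelium were high, with KRT18 at 14.07 and 14.09 in the vehicle arrays and CDH1 at 12.27 and 12.35, while leukocyte PTPRC stayed at 2.52 to 2.78 and endothelial CDH5 at 2.96 to 3.11 over the 4 WT PR-A arrays. Of 9 measured fibroblast markers, COL1A1 was lowered in 2 of its 4 probe sets, the brighter reading 9.59 and 9.33 with vehicle and 8.61 and 8.26 with R5020, whereas LUM and PDGFRA stayed at 2.34 to 3.23. The COL1A1 call was lost without either WT PR-A vehicle array or without R5020 replicate 2, with an adjusted p of up to 0.171. Of 7 measured endothelial markers 1 was lowered, ENG (-0.60 ± 0.11), a call lost without vehicle replicate 1 or R5020 replicate 1 (adjusted p up to 0.0959).

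The known targets responded. SGK1, a kinase that controls ion transport and survival, read 3.86 and 4.75 with vehicle and 8.68 and 8.54 with R5020, a log2 change of 4.31 ± 0.27 (adjusted p = 2.43e-05). HSD11B2, which inactivates cortisol, changed by 4.26 ± 0.32 (adjusted p = 5.34e-05) and FKBP5, a cochaperone of steroid receptors, by 3.54 ± 0.11 (adjusted p = 5.82e-07). Of 22 measured targets of the list 14 were raised and 0 lowered, and 12 of the 14 held whichever of the 10 arrays was left out. Errors after ± are standard errors of the fit, with 2 arrays a group. In bulk RNA a higher or lower level per cell and more or fewer cells of a kind cannot be told apart.

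Calls required at least a 1.5-fold change and an adjusted p under 0.05 (limma, with the replicate number as a block). R5020 raised 534 probe sets (4.26%), for 428 genes, and lowered 404 (3.22%), for 338 genes. With 1 probe set per gene, that of the highest mean level, 392 of 8904 genes were raised (4.4%) and 309 lowered (3.47%); these shares are the background for the gene groups below. The rises were larger than the falls in their extremes: 48 raised probe sets passed 4-fold and 13 passed 8-fold, against 16 and 0 of the lowered. The median change was 1.01 among the raised and -0.86 among the lowered, and -0.01 over all probe sets. In 0 of the 938 called probe sets did the vehicle values overlap the R5020 values. A change of at least 1.5-fold was seen within replicate 1 and within replicate 2 alike for 442 of the raised and 307 of the lowered. Both counts are favoured by selection on these same arrays, and the shares over all probe sets are not given here. Of the 190 genes with several probe sets and at least 1 raised, 58 had every probe set raised and 163 had every probe set changing in 1 direction; for the 138 with at least 1 lowered these were 41 and 112, and in 0 genes was 1 probe set raised and another lowered.

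**Figure D1:**
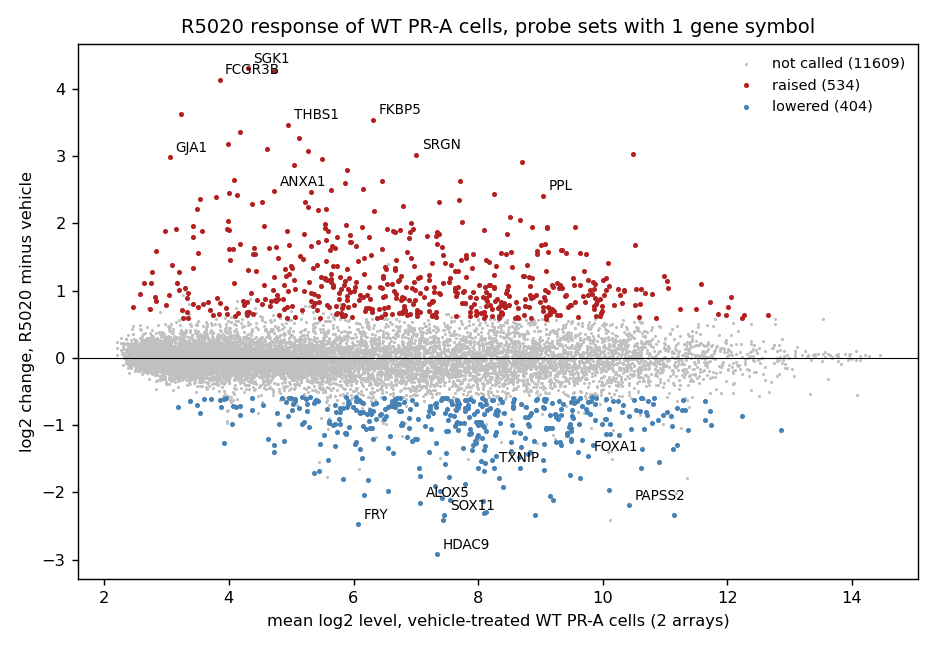
Log2 change with R5020 (vertical) against the mean log2 level of the 2 vehicle arrays (horizontal) for 12547 probe sets, with 534 raised ones in red, 404 lowered ones in blue and the rest in grey. Rises reach past 4 and start from all levels, while the largest fall, HDAC9, is -2.92.

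The plot of change against level shows where the response lay. Probe sets were split into 4 equal groups by vehicle level. In the lowest group, up to 3.49, 0.956% of probe sets were raised and 0.0956% lowered. In the highest group, from 7.58, 6.76% were raised and 7.14% lowered. Calls among probe sets that were dim without hormone were thus mostly rises, while levels near the bottom of the scale left little room for a fall. For 26 raised probe sets the vehicle mean lay under 3.395, the highest lower quartile of any array; their folds start near the dim end of the scale. GJA1, CPM and SLC26A3, described below, are among them. The values used carry no detection calls, so the size of these rises is uncertain.

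Leaving out an array of another line alters the spread estimate alone and not the WT PR-A change. Holding a call against the loss of any 1 of the 10 arrays was the stricter reading used below. Under it 309 of the 534 raised and 171 of the 404 lowered probe sets were called in every such fit. Without WT PR-A vehicle replicate 1, vehicle replicate 2 or R5020 replicate 1 the lowered numbered 249, 269 and 267, while the raised stayed between 379 and 529 whichever array was left out. Counts of called genes in a list are small and moved in such fits too, so the number that held is given with many of them.

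Some genes of adhesion, matrix and Ras signalling were among the largest rises, beside genes of other roles. As lists, 1 of 17 tight and gap junction genes, 0 of 19 collagens and laminins and 1 of 23 integrins were raised. Of 39 cadherins and protocadherins 3 were raised, and of 70 matrix proteases and inhibitors 6. THBS1, which encodes the secreted matrix protein thrombospondin 1, read 5.00 and 4.91 with vehicle and 8.26 and 8.58 with R5020, a change of 3.47 ± 0.33 (adjusted p = 0.000168). GJA1, encoding the gap junction protein connexin 43, read 3.12 and 2.98 with vehicle and 6.20 and 5.88 with R5020 and rose by 2.98 ± 0.16 (adjusted p = 1.69e-05). SRGN, the core protein of serglycin proteoglycan, read 6.98 and 7.04 with vehicle and 10.20 and 9.85 with R5020, a change of 3.02 ± 0.17. The vehicle values of GJA1 are at the dim end. In all 3 genes, as in every raised probe set, both R5020 arrays lay above both vehicle arrays, which selection on these same arrays favours. Their other probe sets did not all move: 3 of 4 for THBS1 and 2 of 3 for SRGN were raised.

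Members of the Ras network followed. MRAS, a Ras-related GTPase, read 5.19 and 5.05 with vehicle and 8.38 and 8.39 with R5020 (3.26 ± 0.24, adjusted p = 4.48e-05). RASSF2, a Ras-binding protein lost in several tumours, read 4.45 and 3.89 with vehicle and 7.06 and 7.99 with R5020 (3.36 ± 0.31, adjusted p = 0.000147). RASGRP1, an exchange factor that loads Ras with GTP, changed by 2.39 ± 0.24 (adjusted p = 0.000278). These 3 were the raised members among 26 measured Ras GTPases and regulators, all held without any single array, and 1 member, RAP1GAP, was lowered, a call lost without vehicle replicate 2 (adjusted p 0.069). The abundant members RAP1B and RAP1A changed by 0.02 and -0.11 and were not called.

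Cytoskeletal and neuronal genes stood beside them. ABLIM3, an actin-binding LIM protein, read 5.71 and 5.27 with vehicle and 8.10 and 8.81 with R5020 (2.96 ± 0.26, adjusted p = 0.000128). DPYSL2, which binds tubulin in growing axons, read 7.67 and 7.73 with vehicle and 10.13 and 10.53 with R5020 (2.63 ± 0.17, adjusted p = 2.43e-05). CDK5R1, the activator of the kinase CDK5, read 4.17 and 3.99 with vehicle and 6.47 and 6.96 with R5020, a change of 2.64 ± 0.17. Periplakin, PPL, which links desmosomes to intermediate filaments, started high and still rose, reading 9.13 and 8.95 with vehicle and 11.54 and 11.35 with R5020 (2.41 ± 0.15, adjusted p = 2.43e-05). All 4 held without any single array.

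Genes best known from other cell types were also among the 12 largest rises. FCGR3B, an Fc receptor of neutrophils whose sequence is nearly that of FCGR3A, read 4.03 and 3.68 with vehicle and 7.66 and 8.31 with R5020 (4.14 ± 0.24, adjusted p = 1.73e-05); the 2 genes may not be told apart by this probe set. CPM, a membrane carboxypeptidase with vehicle values of 3.51 and 2.94, changed by 3.63 ± 0.40 and TRAF5, an adaptor of TNF receptors, by 2.86 ± 0.11. The leukocyte markers CD14, CD163, CD2, CD3E, ITGAM, LYZ and PTPRC, 7 measured, included 0 raised and 0 lowered, with list means of 3.95 and 4.06 in vehicle and 3.96 and 3.99 in R5020 arrays. GREB1, a gene named for its induction by estrogen, read 6.04 and 5.76 with vehicle and 8.81 and 8.58 with R5020 (2.79 ± 0.19, adjusted p = 3.26e-05), while 3 of 20 measured estrogen targets were raised and 1 lowered, with 2 and 0 of these holding without any single array. PLLP, a myelin-type membrane protein, changed by 2.62 ± 0.16.

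**Figure D2:**
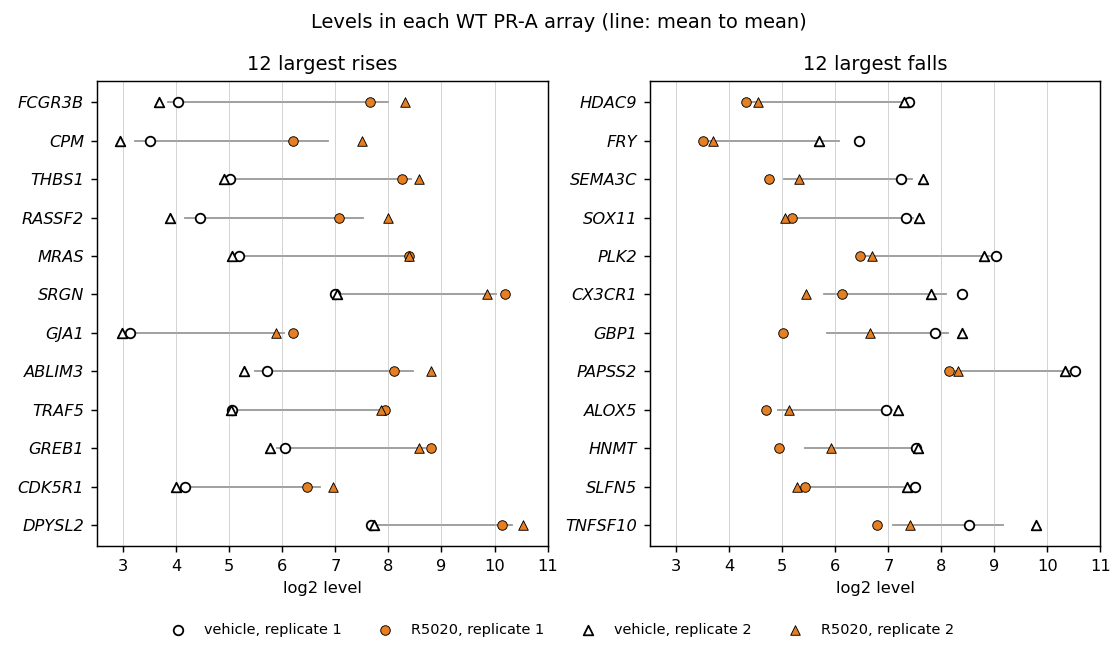
Log2 level in each of the 4 WT PR-A arrays for the 12 largest rises (left) and the 12 largest falls (right) outside the known targets, with open marks for vehicle, filled marks for R5020, circles for replicate 1 and triangles for replicate 2. No gene has overlapping groups, as for every called probe set, which selection on these same arrays favours. GBP1, with R5020 values of 5.02 and 6.66, and TNFSF10, with vehicle values of 8.52 and 9.79, spread most among the falls.

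The largest fall was that of HDAC9, a class IIa histone deacetylase, which read 7.39 and 7.30 with vehicle and 4.31 and 4.54 with R5020 (-2.92 ± 0.13, adjusted p = 6.54e-06) in 1 of its 3 probe sets; the other two changed by 0.01 and 0.07. FRY, a large protein of cell morphogenesis, read 6.44 and 5.70 with vehicle and 3.50 and 3.70 with R5020 (-2.48 ± 0.23). SOX11, a transcription factor of fetal neurons, read 7.33 and 7.58 with vehicle and 5.19 and 5.05 with R5020 (-2.34 ± 0.13, adjusted p = 1.69e-05). SEMA3C, a secreted guidance cue, changed by -2.41 ± 0.23 (adjusted p = 0.000179) and PLK2, a polo-like kinase induced by stress, by -2.34 ± 0.14 (adjusted p = 1.93e-05). These 5 held without any single array.

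Other large falls were in genes of several roles. Of 16 eicosanoid and phospholipase enzymes 1 was raised and 2 lowered. ALOX5, which starts leukotriene synthesis, read 6.95 and 7.18 with vehicle and 4.69 and 5.13 with R5020 (-2.15 ± 0.18, adjusted p = 9.28e-05). HNMT, which inactivates histamine, read 7.52 and 7.56 with vehicle and 4.93 and 5.93 with R5020 (-2.11 ± 0.30, adjusted p = 0.00169). PAPSS2, which makes the sulfate donor of all sulfotransferases, read 10.52 and 10.33 with vehicle and 8.14 and 8.32 with R5020 (-2.19 ± 0.17, adjusted p = 5.34e-05). CX3CR1, the fractalkine receptor, changed by -2.31 ± 0.32 and SLFN5, a schlafen family member, by -2.08 ± 0.16. CX3CR1 was the 1 called gene among 22 chemokines and their receptors.

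2 of the 12 largest falls rested on single arrays. GBP1, a guanylate-binding GTPase, changed by -2.29 ± 0.50 (adjusted p = 0.0181), and its call was lost without WT PR-A vehicle replicate 1, vehicle replicate 2 or R5020 replicate 1, with changes of -3.31 to -1.27 over all such fits. TNFSF10, the death ligand TRAIL, changed by -2.06 ± 0.47 (adjusted p = 0.0239) and lost its call without vehicle replicate 2 or R5020 replicate 1, with changes of -2.86 to -1.26.

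Genes of amino acid supply were called in 1 direction. Of 15 measured genes of amino acid transport and synthesis 7 were raised and 0 lowered (46.7% against 4.4% of all genes), the median change was 0.53 against -0.02 over all genes, and the lowest change was 0.159. Of the 15, 14 had both group means above the median of all values, and in the highest of the 4 level groups 6.76% of probe sets were raised. The list was chosen with earlier results of these data known, so the shares are a description. The 7 became 4 without either vehicle array, and 3 of them held without any single array. SLC43A1, a carrier of large neutral amino acids, read 5.39 and 5.78 with vehicle and 7.63 and 7.31 with R5020 (1.89 ± 0.21, adjusted p = 0.000415). SLC7A5, the light chain of the LAT1 leucine exchanger, read 9.65 and 9.61 with vehicle and 11.24 and 11.13 with R5020 (1.55 ± 0.16, adjusted p = 0.000277). Its heavy chain SLC3A2 rose with it, reading 9.49 and 9.59 with vehicle and 10.64 and 10.61 with R5020 (1.09 ± 0.12, adjusted p = 0.000464). These 3 held without any single array. Asparagine synthetase, ASNS, changed by 1.20 ± 0.20 and lost its call without vehicle replicate 1 (adjusted p 0.056). Glutamine synthetase, GLUL, read 8.65 and 8.81 with vehicle and 9.64 and 10.26 with R5020 (1.22 ± 0.24) and was not called without vehicle replicate 1, vehicle replicate 2 or R5020 replicate 2 (adjusted p up to 0.115). Members not called included MTHFD2 at 0.26 and GOT2 at 0.40. Of the 13 aminoacyl-tRNA synthetases, which charge tRNAs with amino acids, 1 was raised, CARS1, a call lost without vehicle replicate 1, vehicle replicate 2 or R5020 replicate 1 (adjusted p up to 0.154). Their median was 0.30 and 1 member, RARS1, lay below 0, at -0.04.

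Some transcription factors of stress responses and differentiation were raised as well. Of 29 AP-1, EGR, ATF and CEBP genes 5 were raised and 0 lowered (17.2%, median 0.10), against 3 raised without either vehicle array or without R5020 replicate 1. CEBPD, a factor of inflammation and differentiation that is also a known progestin target, read 8.15 and 8.34 with vehicle and 10.75 and 10.61 with R5020 (2.43 ± 0.16, adjusted p = 2.43e-05). CEBPG, a partner of ATF4, read 7.61 and 7.84 with vehicle and 9.18 and 9.19 with R5020 (1.46 ± 0.15, adjusted p = 0.000286), and its chromosomal neighbour CEBPA read 8.46 and 8.51 with vehicle and 9.55 and 9.56 with R5020 (1.07 ± 0.17, adjusted p = 0.00348). ATF4 itself started at 11.24 and 11.23 and changed by 0.73 ± 0.14 (adjusted p = 0.00806), a call lost without either vehicle array or R5020 replicate 1. The abundant JUND and IER2 changed by -0.17 and -0.54 and were not called. In the unfolded protein response 4 of 15 genes were raised, but 1 without vehicle replicate 1 and 1 without R5020 replicate 1. They were led by the secreted factor MANF at 1.07 ± 0.10 (adjusted p = 0.000209), whereas the abundant chaperone CANX and the factor XBP1 changed by 0.08 and 0.05.

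The promoter windows of these genes were read for the composite element bound by ATF4 with CEBP partners, TGATGNAA on either strand, where N is any base. A window held 250 bases before and 50 after a start site (RefSeq, GRCh38.p14). The amino acid, tRNA synthetase, unfolded protein response and AP-1 lists held 70 genes, 16 of them raised. A window was at hand for 60 of the 70, and how many of the 16 had one was not counted. The element lay in 12 of those 60, among them 4 raised genes, ASNS, CEBPG, CARS1 and SLC3A2. By windows, of which a gene can have several, it lay in 3.62% of all 35116, 2.71% of the 9870 of measured genes and 2.69% of the 558 of raised genes. Counts over genes and shares over windows are not to be compared. The stretches around the element in the 2 raised genes that carry it before the start site are shown because both genes are of this group, with the element in capitals and the gene's own strand from 5′ to 3′. In ASNS (chr7:97872429-97872516, minus strand) the element began 68 bases before the start site, and in CEBPG (chr19:33374031-33374112, plus strand) 42 bases before it.
ASNS: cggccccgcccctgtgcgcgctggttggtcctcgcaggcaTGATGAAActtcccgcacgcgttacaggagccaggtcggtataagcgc
CEBPG: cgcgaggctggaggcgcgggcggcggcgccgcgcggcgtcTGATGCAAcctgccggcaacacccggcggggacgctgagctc

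**Figure D3:**
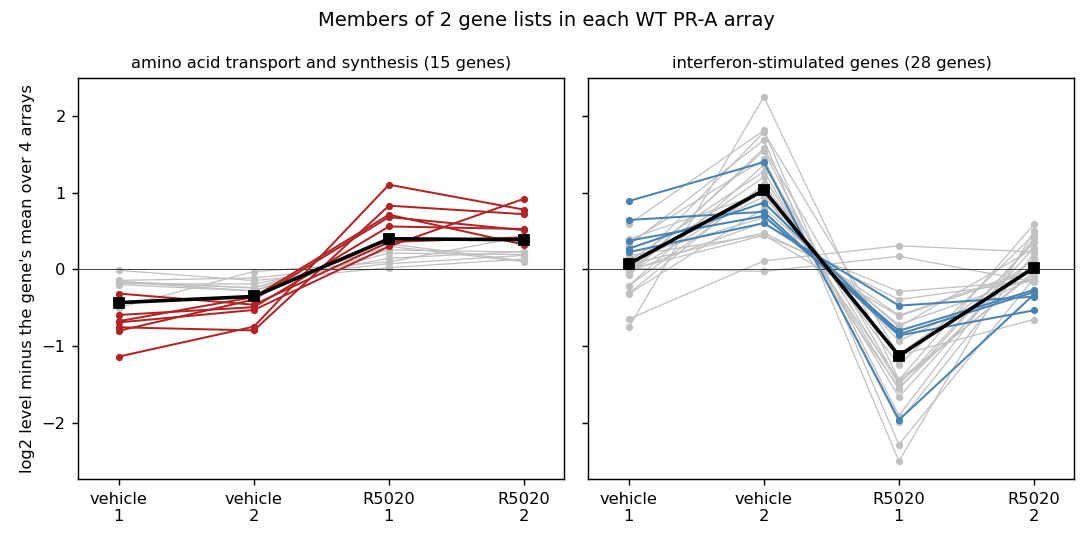
Log2 level of each gene in each of the 4 WT PR-A arrays, minus the gene's own mean over those arrays, for 15 genes of amino acid transport and synthesis and 28 interferon-stimulated genes; raised genes are red, lowered genes blue, genes not called grey and the list mean black. Before that subtraction the amino acid list mean is 8.34 and 8.42 with vehicle against 9.18 and 9.16 with R5020, while in the interferon list R5020 replicate 2, at 8.31, lies at the level of vehicle replicate 1, at 8.36.

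Among solute carriers, the membrane transporters of small molecules, 20 of 134 were raised and 10 lowered (14.9% and 7.46%), with 13 and 5 holding without any single array and 6 lowered without vehicle replicate 1. SLC22A5, the carnitine transporter, read 7.04 and 6.80 with vehicle and 9.08 and 8.78 with R5020 (2.01 ± 0.16, adjusted p = 7.88e-05). SLC6A12, a betaine and GABA carrier, changed by 1.89 ± 0.16. SLC15A2, which imports short peptides, changed by 1.88 ± 0.19. The 2 equilibrative nucleoside transporters moved in opposite directions: SLC29A2 read 8.50 and 8.58 with vehicle and 9.95 and 9.84 with R5020 (1.36 ± 0.11, adjusted p = 7.41e-05) and SLC29A1 read 9.35 and 9.32 with vehicle and 7.95 and 8.13 with R5020 (-1.29 ± 0.15, adjusted p = 0.000502). SLC11A2, the main iron importer, fell from 10.95 and 10.86 to 9.44 and 9.27 (-1.55 ± 0.17, adjusted p = 0.000351). The most abundant carriers, the mitochondrial SLC25A3 and SLC25A5, changed by 0.19 and 0.40 and were not called.

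Glucose and lipid genes rose in part. Of 21 hypoxia and glycolysis genes 7 were raised and 0 lowered (33.3%, median 0.23), 5 of them holding without any single array. PFKFB3, which makes the activator of phosphofructokinase, read 7.77 and 7.71 with vehicle and 10.11 and 9.42 with R5020 (2.02 ± 0.27, adjusted p = 0.00121), P4HA2, a collagen prolyl hydroxylase, changed by 1.89 ± 0.15, and SLC2A1, the glucose transporter GLUT1, read 6.59 and 6.79 with vehicle and 8.14 and 8.14 with R5020 (1.45 ± 0.15, adjusted p = 0.000278). The glycolytic enzymes LDHA and PGK1 changed by 0.51 and -0.21 and were not called. In the lipid droplet and fatty acid list 5 of 23 were raised and 0 lowered (21.7%, median 0.18), against 3 without vehicle replicate 1 or R5020 replicate 1. ACSL1, which activates fatty acids with coenzyme A, read 8.91 and 8.80 with vehicle and 10.70 and 10.92 with R5020 (1.95 ± 0.12, adjusted p = 2.09e-05). PLIN3, a lipid droplet coat protein, changed by 1.29 ± 0.12 and SCD, the desaturase that makes oleate, by 0.83 ± 0.11 (adjusted p = 0.00108). ACLY, which supplies acetyl coenzyme A, changed by -0.21 and was not called. In cholesterol synthesis DHCR7 (0.92 ± 0.12) and PMVK were raised among 12, the latter not without vehicle replicate 2 or R5020 replicate 1 (adjusted p up to 0.0781), and INSIG1, its brake, changed by -0.50 without a call.

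Enzymes that make and break steroids and retinoids were called often, 7 of 55 raised and 3 lowered (12.7% and 5.45%), with 5 and 3 holding without any single array. ALDH1A3, which makes retinoic acid, read 6.36 and 6.28 with vehicle and 8.57 and 8.43 with R5020 (2.18 ± 0.14, adjusted p = 2.56e-05). CRABP2, which carries retinoic acid to the nucleus, fell from 12.95 and 12.78 to 11.72 and 11.85 (-1.08 ± 0.12, adjusted p = 0.000415). HSD17B1, which turns estrone into estradiol, read 7.57 and 7.27 with vehicle and 9.26 and 8.88 with R5020 (1.65 ± 0.27, adjusted p = 0.0037), a call lost without vehicle replicate 2 (adjusted p 0.0518). STS, which frees estrone from its sulfate, read 9.78 and 9.89 with vehicle and 8.35 and 8.73 with R5020 (-1.30 ± 0.15, adjusted p = 0.000617). SRD5A1, a steroid reductase that also acts on progesterone, changed by 1.45 ± 0.18 and RDH16, a retinol dehydrogenase, by 1.48 ± 0.21.

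Metal and redox genes followed. Both called metallothioneins of 3 measured, MT1X (1.92 ± 0.14) and MT1H, share nearly identical sequence, so they cannot be told apart with certainty. HMOX1, which degrades heme, read 5.71 and 5.60 with vehicle and 7.22 and 7.41 with R5020 (1.66 ± 0.12, adjusted p = 3.33e-05), and SOD2, the mitochondrial superoxide dismutase, read 4.77 and 4.37 with vehicle and 6.70 and 6.36 with R5020 (1.96 ± 0.24, adjusted p = 0.000749). GSTP1, a glutathione transferase, changed by 1.30 ± 0.15. TXNIP, the thioredoxin inhibitor that also restrains glucose uptake, fell from 8.13 and 8.42 to 6.62 and 7.04 (-1.45 ± 0.23, adjusted p = 0.00341). Of 43 genes of glutathione and oxidative stress 5 were raised and 2 lowered, with 4 and 1 holding without any single array and the abundant SOD1 at -0.10. ABCA1, the cholesterol exporter, rose by 1.64 ± 0.17 (adjusted p = 0.000305) and ABCC2, an exporter of conjugated drugs, read 8.53 and 8.13 with vehicle and 6.81 and 6.27 with R5020 (-1.79 ± 0.25, adjusted p = 0.00172), the 2 calls among 23 ABC transporters.

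TXNIP was also 1 of 2 called genes with a full palindromic progesterone response element in a promoter window. The element was searched as GNACANNNTGTNC, which reads the same on both strands. It lay in 0.39% of all 35116 windows, in 0.324% of the 9870 windows of measured genes, in 0 of the 558 windows of raised genes and in 2 of the 443 windows of lowered genes, those of TXNIP and DMD (dystrophin, -0.80 ± 0.14). In TXNIP (chr1:145996702-145996794, minus strand) it began 175 bases before the start site, and in DMD (chrX:32412308-32412400, minus strand) 132 bases before 1 of its start sites. Both are printed as the called genes that hold the full element, in capitals, and were chosen after their values were seen.
TXNIP: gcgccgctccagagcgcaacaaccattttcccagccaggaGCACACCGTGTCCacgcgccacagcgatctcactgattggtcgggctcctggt
DMD: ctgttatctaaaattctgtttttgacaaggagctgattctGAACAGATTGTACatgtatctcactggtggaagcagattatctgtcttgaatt

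Shorter elements were searched in the same windows. The half-site AGAACA lay in 11.3% of raised, 11.3% of lowered, 12.1% of measured and 14.8% of all windows, and the AP-1 site TGANTCA in 7.17%, 8.35%, 6.55% and 7.71%. The forkhead site TGTTTAC lay in 2.51%, 3.16%, 3.03% and 3.42% in the same order. The hypoxia element core ACGTG lay in 26.0% of raised, 19.2% of lowered, 23.0% of measured and 21.4% of all windows. The interferon element GAAANNGAAA lay in 2.69%, 4.06%, 3.2% and 3.57%. Each was searched on both strands, and these windows leave out enhancers and introns.

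Growth factor and cytokine genes were called from ligand to transducer. Of 6 measured EGF-like ligands 3 were raised and 0 lowered, against 1 without vehicle replicate 1 or R5020 replicate 2. EGF read 6.97 and 7.38 with vehicle and 9.09 and 8.89 with R5020 (1.82 ± 0.16, adjusted p = 0.000118) and held without any single array. HBEGF (0.84 ± 0.18) lost its call without vehicle replicate 1 or R5020 replicate 2, with an adjusted p up to 0.176. TGFA (0.68 ± 0.15) lost it without vehicle replicate 1, R5020 replicate 1 or R5020 replicate 2, with an adjusted p up to 0.204. EREG and NRG1 changed by -0.27 and -0.14 and were not called. Their receptor EGFR read 8.47 and 8.45 with vehicle and 10.35 and 10.25 with R5020 (1.84 ± 0.13, adjusted p = 3.33e-05), with 2 of its 4 probe sets raised and the others, at 0.58 and 0.53, not called.

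Of 28 receptor tyrosine kinases 3 were raised and 4 lowered. The 4 became 1 without vehicle replicate 1 and 2 without vehicle replicate 2 or R5020 replicate 1. MERTK, which clears apoptotic cells, read 3.47 and 3.51 with vehicle and 5.96 and 5.45 with R5020 (2.21 ± 0.17, adjusted p = 5.34e-05). FGFR2, a fibroblast growth factor receptor and breast cancer susceptibility gene, read 7.10 and 7.02 with vehicle and 5.30 and 5.53 with R5020 (-1.64 ± 0.13, adjusted p = 5.5e-05). IGF1R, the abundant insulin-like growth factor receptor, changed by 0.02 and was not called, and 0 of the 10 genes of its pathway list were called. In the PI3K and mTOR list DDIT4, a stress-induced mTOR inhibitor, read 9.27 and 9.84 with vehicle and 11.44 and 11.56 with R5020 (1.94 ± 0.30, adjusted p = 0.00283). INPP4B, a lipid phosphatase that restrains AKT, read 8.93 and 9.18 with vehicle and 7.46 and 7.33 with R5020 (-1.67 ± 0.15, adjusted p = 0.000128) and PIK3R3, a regulatory subunit of PI3K, changed by -1.23 ± 0.11 (adjusted p = 0.000132).

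Among 30 cytokine receptors and JAK-STAT genes 5 were raised and 3 lowered (16.7% and 10.0%), and the 5 rises, unlike the 3 falls, held without any single array. JAK2, the kinase behind prolactin and growth hormone receptors, read 6.01 and 6.06 with vehicle and 7.62 and 7.76 with R5020 (1.66 ± 0.12, adjusted p = 3.57e-05). GHR, the growth hormone receptor, read 8.68 and 8.76 with vehicle and 9.98 and 9.91 with R5020 (1.22 ± 0.14, adjusted p = 0.000564). LIFR, a receptor of the interleukin 6 family, changed by 1.79 ± 0.12 and STAT5A, the factor of mammary differentiation downstream of JAK2, by 1.34 ± 0.12. The abundant IFNGR1 and JAK1 changed by 0.53 and 0.35 without a call. STAT6 and IFNAR1, which encode an interleukin 4 transducer and an interferon receptor chain, were lowered by the main test, at -0.77 and -0.69. STAT6 lost its call without vehicle replicate 2 or R5020 replicate 2 (adjusted p up to 0.0872), and IFNAR1 without vehicle replicate 1 or R5020 replicate 2 (adjusted p up to 0.111).

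NOTCH2 and NOTCH3, paralogous receptors of cell fate, moved in opposite directions. NOTCH2 read 9.89 and 9.57 with vehicle and 11.26 and 11.28 with R5020 (1.54 ± 0.13, adjusted p = 9.31e-05) and NOTCH3 read 9.27 and 9.25 with vehicle and 8.42 and 8.35 with R5020 (-0.87 ± 0.11, adjusted p = 0.000678). Both held without any single array. HES1, a transcriptional target of the pathway, changed by -0.75 ± 0.14 and lost its call without vehicle replicate 2 or R5020 replicate 2 (adjusted p up to 0.0913). In the TGF-beta and BMP list 2 of 36 were raised and 2 lowered, near the background, and 1 of each held without any single array. TGFB1 itself changed by -1.05 ± 0.18, a lowered call that was lost without vehicle replicate 2 or R5020 replicate 1 (adjusted p up to 0.0695), and the inhibitor SMAD7 by -0.76 ± 0.11 (adjusted p = 0.00191).

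Luminal lineage factors were also called in 1 direction, downward. Of 12 measured 0 were raised and 4 lowered (33.3% against 3.47% of all genes), the median was -0.51, and the list mean was 10.31 and 10.46 in the vehicle arrays and 9.75 and 9.77 in the R5020 arrays. All 12 had both group means above the median of all values, and in the highest of the 4 level groups 7.14% of probe sets were lowered. This list too was chosen with earlier results of these data known, so the shares are a description. The 7 markers of luminal epithelium had list means of 10.43 and 10.51 with vehicle and 9.91 and 9.99 with R5020. The 1 lowered among them was FOXA1, a member of both lists, so the 2 lists are not independent. The part of these markers in the result was not tested. TFAP2B, an AP-2 factor of luminal cells, read 9.22 and 9.72 with vehicle and 7.61 and 7.84 with R5020 (-1.75 ± 0.28, adjusted p = 0.00325). FOXA1, the pioneer factor of estrogen receptor binding, read 9.67 and 9.86 with vehicle and 8.38 and 8.22 with R5020 (-1.46 ± 0.14, adjusted p = 0.000159). TFAP2A, a paralog of TFAP2B, read 11.77 and 11.70 with vehicle and 10.78 and 10.68 with R5020 (adjusted p = 0.000404). These 3 held without any single array, while ELF3 (-0.99 ± 0.19), an epithelial ETS factor, lost its call without vehicle replicate 2 or R5020 replicate 1 (adjusted p up to 0.111). The structural markers KRT18 and KRT19 changed by -0.56 and -0.47, short of the 1.5-fold a call required, and of 13 keratins 0 were called. TRIM29, a basal-type gene, read 7.10 and 7.59 with vehicle and 8.85 and 9.24 with R5020 (1.70 ± 0.28), a call lost without vehicle replicate 1 (adjusted p 0.0623), whereas VIM, the mesenchymal filament, read 7.59 and 7.36 with vehicle and 6.13 and 6.65 with R5020 (-1.09 ± 0.17, adjusted p = 0.0032).

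Other transcription factors split. FOXO1, a forkhead factor of insulin signalling and decidual cells, read 5.96 and 5.80 with vehicle and 7.84 and 7.88 with R5020 (1.98 ± 0.13, adjusted p = 2.56e-05). KAT2B, the acetyltransferase PCAF, read 5.71 and 6.16 with vehicle and 7.87 and 7.65 with R5020 (1.83 ± 0.17, adjusted p = 0.000162). Of 41 homeobox genes 2 were raised and 6 lowered (4.88% and 14.6%), among the lowered SATB1, a chromatin organiser, at -0.92 ± 0.14 and MEIS1, a HOX partner, at -0.81 ± 0.13. 2 of the 6 falls held without any single array; there were 3 without vehicle replicate 1 and 2 without vehicle replicate 2 or R5020 replicate 2, and 1 of the 2 rises held. Zinc finger proteins, the largest list, were called in 3 and 3 of 183, below the background in both directions, with 2 and 1 holding; without R5020 replicate 2 there were 6 lowered. Of 23 nuclear receptors ESRRA, an orphan receptor of mitochondrial genes, was raised by 1.01 ± 0.13 (adjusted p = 0.000962) and the mineralocorticoid receptor NR3C2 by 0.82 ± 0.19, the latter not without vehicle replicate 1, vehicle replicate 2 or R5020 replicate 2 (adjusted p up to 0.229).

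**Figure D4:**
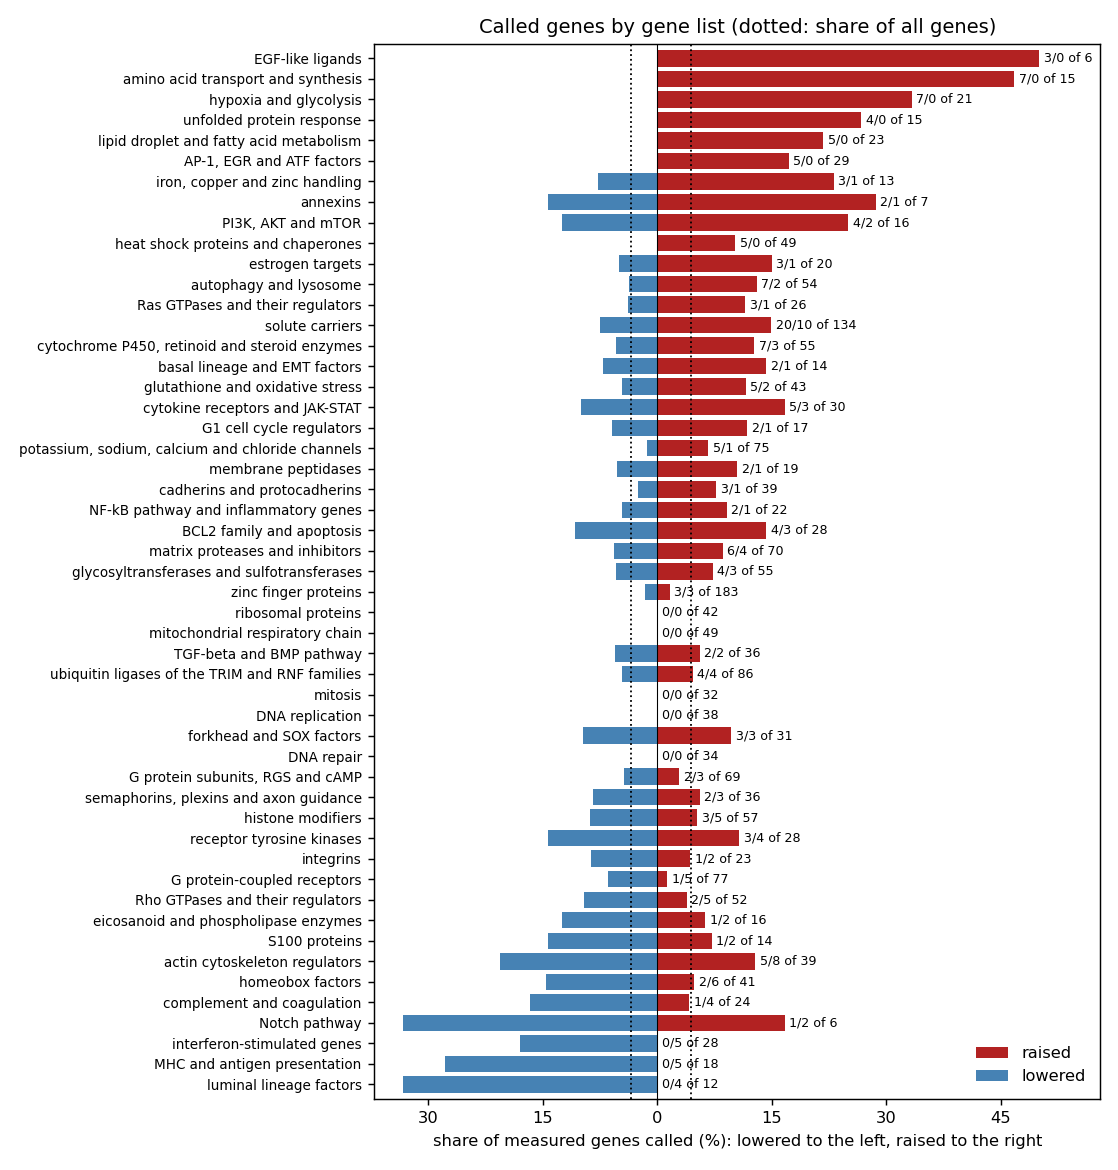
Share of measured genes raised (red, to the right) and lowered (blue, to the left) in gene lists with at least 6 measured genes and at least 3 called ones, plus lists of 30 or more with 0 called. The list of known progestin targets is not shown, but its members still count in other lists. Labels give raised and lowered of measured genes, and dotted lines the shares of all genes, 4.4% and 3.47%. EGF-like ligands and amino acid genes reach farthest right, luminal factors and the Notch pathway farthest left.

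Adhesion and cytoskeleton genes changed in both directions. Of 39 actin regulators 5 were raised and 8 lowered (12.8% and 20.5%), with 4 and 2 holding without any single array; without vehicle replicate 1 or R5020 replicate 1 there were 4 lowered. SCIN, which severs actin filaments, read 5.15 and 5.29 with vehicle and 7.60 and 7.47 with R5020 (2.32 ± 0.27, adjusted p = 0.000525), and CALD1, caldesmon, changed by 1.07 ± 0.16. LASP1, a focal adhesion protein, read 10.83 and 10.73 with vehicle and 9.75 and 9.88 with R5020 (-0.97 ± 0.12, adjusted p = 0.000827). ACTB and CFL1, at the top of the scale, changed by 0.05 and -0.09. The annexins, calcium-dependent membrane binders, went apart: ANXA1, the glucocorticoid-induced member, read 4.61 and 4.85 with vehicle and 7.15 and 7.28 with R5020 (2.48 ± 0.20, adjusted p = 6.65e-05) and ANXA6 read 10.23 and 9.97 with vehicle and 8.13 and 8.14 with R5020 (-1.96 ± 0.15, adjusted p = 6.4e-05).

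Of 23 integrins 1 was raised and 2 lowered, the rise lost without vehicle replicate 1 or R5020 replicate 2. Of 70 matrix proteases and inhibitors 6 were raised and 4 lowered, the latter 2 without R5020 replicate 1. ITGA5, the fibronectin receptor chain, read 7.89 and 7.94 with vehicle and 6.59 and 6.65 with R5020 (-1.29 ± 0.11, adjusted p = 8.15e-05). F3, tissue factor, which starts coagulation, read 5.40 and 5.70 with vehicle and 7.44 and 8.08 with R5020 (2.21 ± 0.23, adjusted p = 0.000288), and PLAU, the urokinase plasminogen activator, read 6.44 and 6.73 with vehicle and 5.51 and 5.34 with R5020 (-1.16 ± 0.18, adjusted p = 0.00299). CTSH, a lysosomal protease, changed by 1.56 ± 0.22 and SLPI, a secreted protease inhibitor of mammary and airway epithelium, started at 10.53 and 10.50 and rose by 1.68 ± 0.16 (adjusted p = 0.000163). In the sugar chain enzymes ST3GAL4, a sialyltransferase, rose by 1.49 ± 0.12 and HS6ST2, a heparan sulfotransferase, changed by -1.30 ± 0.12 (adjusted p = 0.000161).

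Cell death genes were called on both sides, 4 of 28 raised and 3 lowered, but 1 lowered without vehicle replicate 2 or R5020 replicate 1. PMAIP1 (NOXA), a BH3-only protein that opposes MCL1, read 7.53 and 7.87 with vehicle and 9.81 and 10.29 with R5020 (2.35 ± 0.20, adjusted p = 9.84e-05), and its other probe set rose by 2.51. BCL2L11 (BIM), another BH3-only protein, read 7.25 and 7.28 with vehicle and 8.64 and 8.72 with R5020 (1.41 ± 0.11, adjusted p = 4.92e-05). The death receptor FAS changed by 1.29 ± 0.23, without a call when vehicle replicate 2 was left out (adjusted p 0.0779). The survival genes MCL1 and BIRC2 changed by 0.17 and 0.14 and were not called. Among 54 autophagy and lysosome genes 7 were raised, 4 without vehicle replicate 1, and 2 lowered, 1 without R5020 replicate 1. ATP6V1C2, a proton pump subunit, read 5.90 and 5.99 with vehicle and 7.85 and 7.48 with R5020 (1.72 ± 0.16, adjusted p = 0.000148) and NPC1, the lysosomal cholesterol exporter, changed by 1.54 ± 0.16. Chaperones added DNAJB4, an HSP40 member, at 2.60 ± 0.16 (adjusted p = 2.09e-05) and HSPA9, the mitochondrial HSP70, at 1.02 ± 0.13; HSPB1 and HSPD1 changed by 0.58 and 0.19 without a call.

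Several lists of proliferation and housekeeping genes held 0 calls. In DNA replication (38 genes), mitosis (32), DNA repair (34), ribosomal proteins (42), the mitochondrial respiratory chain (49) and the SUMO pathway (11), 0 genes were raised and 0 lowered. Medians were -0.17, -0.14, -0.14, 0.02, 0.14 and -0.10, and no replication gene changed by more than 0.399. Without R5020 replicate 2 the replication and mitosis lists had 1 lowered gene each. In other lists of the kind there were calls, with 2 raised and 1 lowered of 17 regulators of G1. PCNA and CDK1 changed by -0.17 and -0.05. The replication and mitosis medians in PR-A K388R cells were 0.25 and 0.42, with 2 and 3 genes raised there.

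Interferon-stimulated and antigen presentation genes were lower with R5020, and how many were called depended on single arrays. Of 28 interferon-stimulated genes 5 were lowered and 0 raised (17.9%), and the median was -1.11. The list mean read 8.36 and 9.33 with vehicle and 7.16 and 8.31 with R5020, so R5020 replicate 2 lay at the level of vehicle replicate 1. In 26 of 28 genes the R5020 value was lower within both replicate numbers. The change was below 0 in 52.8% of all probe sets, and their share lower within both replicate numbers is not given here. The 28 genes were read on the same arrays and mostly shifted together between replicates, so the 26 are not independent observations. In 27 of 28 the second vehicle array was higher than the first, by a median of 0.96, against 51.2% of all probe sets. The same list read 7.16 and 6.33 in vehicle-treated and 6.997 and 6.18 in R5020-treated PR-A K388R cells. In these values replicate 2 minus replicate 1 cancels over the 5 groups for each probe set. A higher replicate 2 in WT PR-A cells thus forces a lower one in other groups. The opposite order in K388R cells is therefore not read as a trait of that line. Without vehicle replicate 2 there were 1 raised and 1 lowered member, without R5020 replicate 1 there was 1 lowered, without R5020 replicate 2 there were 12 and without vehicle replicate 1 there were 5. What moved the list between replicates was not tested.

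1 of its calls was stable. GBP2, a guanylate-binding GTPase, read 7.16 and 7.27 with vehicle and 5.65 and 5.98 with R5020 (-1.40 ± 0.15, adjusted p = 0.000304) and held without any single array. MX2, an antiviral GTPase, changed by -0.83 ± 0.16 (adjusted p = 0.00919) but lost its call without vehicle replicate 2 or R5020 replicate 1 (adjusted p up to 0.107). The abundant members BST2 and UBE2L6 changed by -0.63 and -1.04 and were not called. Of 18 MHC and antigen presentation genes 5 were lowered and 0 raised (27.8%, median -0.33), against 1 without vehicle replicate 2, 2 without R5020 replicate 1 and 3 without R5020 replicate 2. HLA-DPB1, a class II chain, read 7.57 and 7.67 with vehicle and 6.56 and 6.65 with R5020 (-1.02 ± 0.12, adjusted p = 0.000484) and held without any single array. PSMB9, an interferon-induced proteasome subunit, changed by -1.14 ± 0.29 (adjusted p = 0.0362) and lost its call without vehicle replicate 2, R5020 replicate 1 or either T47D-Y array (adjusted p up to 0.318), whereas the constitutive PSMA2 and PSMB4 changed by 0.02 and -0.06.

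Of 69 G protein subunits, RGS proteins and cyclic AMP genes 2 were raised and 3 lowered (2.9% and 4.35%), shares near the background. The 3 lowered were subunits of protein kinase A, the cyclic AMP-dependent kinase, singled out after their values were seen. PRKACA and PRKACB, catalytic subunits, changed by -0.75 ± 0.11 (adjusted p = 0.00188) and -0.78 ± 0.12 (adjusted p = 0.00244) and held without any single array. PRKAR2B, a regulatory subunit, read 10.02 and 9.95 with vehicle and 8.98 and 9.03 with R5020 (-0.98 ± 0.17, adjusted p = 0.00624); its call was lost without vehicle replicate 1 or R5020 replicate 1 (adjusted p up to 0.0672). PRKAR1A, the abundant regulatory subunit, changed by -0.24 and was not called. Of 77 G protein-coupled receptors 1 was raised and 5 lowered, the latter 2 without vehicle replicate 2 or R5020 replicate 1, and 1 of the 5 held. Of 75 ion channels and pumps 5 were raised and 1 lowered. The raised were 3 without either vehicle array and 2 without R5020 replicate 2, and the lowered 0 without either vehicle array. ATP1B1, a sodium pump subunit, was raised by 1.14 ± 0.20 but not without vehicle replicate 1 or R5020 replicate 2 (adjusted p up to 0.0789).

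Some called genes were neighbours on the chromosome. Over 7176 measured coding genes in RefSeq order, 83 of 419 raised genes (19.8%) stood next to another raised one, in 38 runs, and 34 of 313 lowered genes (10.9%) next to a lowered one, in 17 runs. Of all 7176 genes 11.2% stood next to a raised gene and 8.47% next to a lowered one, and whether the shares differ was not tested. The longest runs had 4 raised genes each, AKNAD1, GPSM2, CLCC1 and WDR47 on chromosome 1 and HPCAL1, ODC1, ATP6V1C2 and CIMIP5 on chromosome 2. Other pairs joined genes already described: THBS1 with RASGRP1, SLC7A5 with KLHDC4, BCL2L11 with MERTK, STAT5A with STAT5B, CEBPA with CEBPG, and among the falls GBP1 with GBP2, FOXA1 with TTC6 and IFNAR1 with IFNGR2. IFNGR2 lost its call without vehicle replicate 1, vehicle replicate 2 or R5020 replicate 1 (adjusted p up to 0.151). Genes that the table lacks may lie between such neighbours, and probe sets of families such as the guanylate-binding proteins can share sequence.

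The WT PR-A response was then set beside that of PR-A K388R cells, which share no array with it. The 2 receptors are carried by separately transfected stable lines, so effects of the mutation and of line selection cannot be told apart in these differences. Across the 938 called probe sets the 2 responses correlated at 0.708 (Pearson, 0.498 over all probe sets), a description over probe sets that share arrays. In K388R cells 459 of the 534 raised probe sets changed in the same direction, 94 were called raised there and 0 were called lowered. Of the 404 lowered, 344 changed in the same direction, 39 were called lowered and 2 raised. The median change of the raised was 0.28 in K388R cells against 1.01, and that of the lowered -0.26 against -0.86, for genes that were chosen on the WT PR-A arrays.

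The difference itself (K388R minus WT PR-A response) was called in 139 probe sets in the negative direction (1.11%) and 75 in the positive (0.598%). Of the WT PR-A calls 186 had a smaller response in K388R cells, 53 of them lowered in WT PR-A cells, 1 had a larger one and 751 had no called difference. These probe sets were chosen for their change in the WT PR-A arrays, which favours a smaller response elsewhere, so the numbers are a description. 39 of these 187 differences held without any single array. The 186 became 56 to 103 without any 1 of the 4 K388R arrays, either WT PR-A vehicle array or WT PR-A R5020 replicate 1, and 346 without the replicate block.

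**Figure D5:**
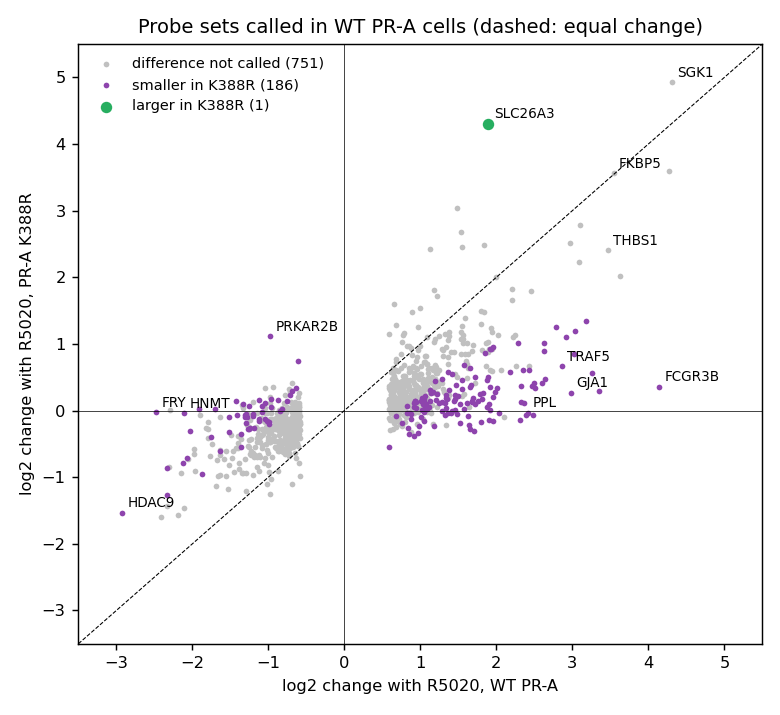
Log2 change with R5020 in PR-A K388R cells (vertical) against that in WT PR-A cells (horizontal) for the 938 probe sets called in WT PR-A cells, in purple where the difference was called with a smaller response in K388R, in green where larger, in grey where not called; the dashed line marks equal change. FKBP5 and SGK1 lie near the line, FCGR3B, PPL, FRY and HNMT near a K388R change of 0, and SLC26A3 above the line.

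The clearest differences were in genes that rose in WT PR-A cells and stayed near their vehicle level in K388R cells. PPL read 9.69 and 9.91 with vehicle and 9.85 and 9.68 with R5020 in K388R cells, a difference of -2.45 ± 0.21 (adjusted p = 0.00197). For GJA1 the difference was -2.72 ± 0.22 (adjusted p = 0.00197), for FCGR3B -3.78 ± 0.34, for TRAF5 -2.20 ± 0.16 (adjusted p = 0.00168). ADARB1, an RNA-editing adenosine deaminase, read 4.59 and 4.48 with vehicle and 6.97 and 6.74 with R5020 in the WT line and differed by -2.19 ± 0.18. EFCAB3, which has a calcium-binding domain, differed by -2.08 ± 0.18. These 6, the smallest p-values of the comparison, held without any single array. So did ANXA1 (-2.55 ± 0.28), BCL2L11 (-1.42 ± 0.15), FOXO1 (-1.71 ± 0.18), ABCA1 (-1.85 ± 0.24), ALDH1A3 (-1.60 ± 0.20), HMOX1 (-1.31 ± 0.16) and CEBPD (-1.83 ± 0.22).

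Among the falls FRY (2.45 ± 0.32, adjusted p = 0.00723) and SOX11 (1.48 ± 0.18, adjusted p = 0.00663) differed and held without any single array. PRKAR2B went opposite ways: in K388R cells it read 7.03 and 7.53 with vehicle and 8.48 and 8.31 with R5020, a rise of 1.12 ± 0.17 (adjusted p = 0.0148), and the difference was 2.10 ± 0.25 (adjusted p = 0.00568). The 1 larger response was that of SLC26A3, a chloride and bicarbonate exchanger, which read 2.94 and 3.03 with vehicle and 4.43 and 5.32 with R5020 in the WT line and 2.98 and 3.01 with vehicle and 7.85 and 6.75 with R5020 in the K388R line, a difference of 2.41 ± 0.48 (adjusted p = 0.0455). That difference was lost in 8 of the 10 fits that each left out 1 array, and the WT PR-A call without vehicle replicate 1 (adjusted p 0.0654).

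Other genes had no called difference, with intervals that bound it. For FKBP5 the 95% interval of the difference was -0.32 to 0.37, for EGFR -0.77 to 0.04, for ABLIM3 -1.29 to 0.38 and for SGK1 -0.23 to 1.47. Those of CPM (-2.88 to -0.35), THBS1 (-2.09 to -0.03) and CX3CR1 (0.45 to 2.46) did not include 0, but their differences had adjusted p = 0.26, adjusted p = 0.4 and adjusted p = 0.188 and were not called.

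For the T47D-Y cells, which lack the receptor, the vehicle arrays give the level of some of these genes. SRGN read 3.78 and 3.78 in T47D-Y cells, below both groups of WT PR-A cells, and HNMT 4.03 and 3.90. DPYSL2 read 9.71 and 9.65, between the WT PR-A vehicle and R5020 values, and ALOX5 8.86 and 8.47, above both. WT PR-A cells were made from T47D-Y by transfection, so effects of the receptor without hormone and of line selection cannot be told apart in these levels.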

How the data were processed

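RNA of 5 groups of 2 samples was hybridised to Affymetrix U133 Plus 2 arrays. The authors normalized the deposited log2 values in Partek, named in the submitters' notes too; the method of normalization is not given in the sources used here. The labels and the study's methods name different media and RNA kits. The table held 16376 probe sets, of which 12547 had 1 gene symbol, 457 had several and 3372 were not listed; 0 columns lacked a sample. Array number limits the precision.

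Replicate numbers were treated as a block, since replicate 2 minus replicate 1, summed over the 5 groups, was at most 0.0003 for any probe set, against a median of 0.228 to 0.255 with 1 group's numbers exchanged. The linear model held 5 groups and the block over all 10 arrays (limma 3.58.1, R 4.3.3; summaries in Python 3.11.15), with Benjamini-Hochberg adjustment over all 16376 probe sets of the table and a call at adjusted p under 0.05 and 1.5-fold. The script was tested on simulated data. Alternatives left out the block, each array or dim probe sets, or changed the variance model, the scaling or the threshold.

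The genes and 72 gene lists were chosen with earlier results of these data known. Named were the 12 largest changes in each direction, the 8 largest among brighter genes, the 6 smallest p-values of the difference between responses in each direction, up to 4 called and 2 bright uncalled members of each list, and 3 known targets. Lists taken by family symbol kept protein-coding genes alone and dropped symbols matched wrongly. CRABP2, DMD, IFNAR1, MX2, RARS1, RDH16, SLC15A2, SLC29A1, SLC29A2, SLC3A2, SRD5A1, STAT6, STS, the single cell type markers and the chromosomal neighbours fell outside this rule and were chosen after their values were seen.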

Additional observations from a re-analysis of the deposited data

Results flagged for a closer look

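By the test of the difference between the 2 responses to R5020, those that differed numbered 186 with a smaller and 1 with a larger response in K388R cells, among 938 called probe sets. These were chosen for their change in the WT line, which favours a smaller response in K388R cells. Over all probe sets the difference was negative in 139 and positive in 75. Differences below are the log2 response in K388R cells minus that in WT PR-A cells. Receptor and cell line cannot be told apart in them. Among genes that rose in the WT line they were -3.78 for FCGR3B, -3.06 for RASSF2, -2.72 for GJA1, -2.70 for MRAS, -2.45 for PPL, -2.20 for TRAF5, -2.19 for ADARB1, -2.18 for SRGN, -2.16 for CDK5R1, -2.08 for EFCAB3, -1.74 for PLLP, -1.62 for DPYSL2 and -1.53 for GREB1. Among genes that fell in the WT line they were 2.45 for FRY, 2.07 for HNMT, 1.48 for SOX11, 1.39 for HDAC9 and 1.37 for SLFN5. For SLC26A3, raised in both lines and more in K388R cells, the difference was 2.41. Of these, the differences of RASSF2, DPYSL2, GREB1, HNMT, HDAC9, SLFN5 and SLC26A3 were lost in at least 1 fit that left out 1 array.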

How the results depend on the processing

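Counts of raised and lowered probe sets were within 1.5 times those of the main test (534 and 404) without the replicate block (545 and 427), with 4 arrays alone, an intensity trend, quantile normalization, arrays centred on medians or dim probe sets left out. With each probe set's own variance in place of the moderated one they were 179 and 104, and at a 2-fold threshold 272 and 149. Leaving out 1 array gave 379 to 529 raised and 249 to 412 lowered. Smaller responses in K388R cells (186) numbered 346 without the replicate block, 314 with the trend, 0 unmoderated and 56 to 135 with 1 array left out. Larger responses (1) numbered 3 without the replicate block, 3 with the trend, 2 after quantile normalization, 2 with arrays centred on medians, 0 unmoderated and 0 to 2 with 1 array left out. Over 5858 values of 345 named probe sets under the alternatives, 5533 kept their side of the threshold. A further 302 lost the threshold, 113 of them in the unmoderated test, and 23 gained it. Direction was compared for the 204 called probe sets alone, and 0 of their values reversed. Of list counts 692 were within 1.5 times the main count and 172 were not. The cause of these shifts was not tested.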
